A study of Mus musculus with 18 samples.

Results

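The 39 autophagy and lysosome genes described here were taken by symbol from a table of 17672 mouse genes. They comprise 25 autophagy genes, 10 lysosome genes and the 4 genes of the TFEB transcription factor family. All 39 passed the filter on low counts, as did 10178 genes in all. RNA was sequenced from differentiated cells of an immortalized mouse brown preadipocyte line, in 6 groups of 3 libraries. Every group carried a stable lentiviral shRNA to Abhd5, which encodes the co-activator of the lipase ATGL, and a doxycycline-inducible, shRNA-resistant ABHD5 tagged with mCherry in pINDUCER20. Cells without doxycycline (Dox) are labelled as ABHD5 knockdown. Cells given 1 µg/ml Dox, for 24 to 48 h per the labels and 24 h in the legend for this experiment, are labelled WT, although they too hold the shRNA and make ABHD5 from the construct. In each state the cells were exposed for 3 h to DMSO (vehicle), to 10 nM isoproterenol (ISO), a β-adrenergic receptor agonist, or to 20 µM SR-3420, a synthetic ABHD5 ligand that frees ABHD5 to activate ATGL. The groups address which responses to an agonist and to a direct activator of lipolysis differ with Dox. No cells without the inducible construct were given Dox, so an effect of Dox itself and one of ABHD5 cannot be told apart.

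In macroautophagy, a double membrane grows around a portion of cytoplasm, closes into an autophagosome and fuses with the lysosome, where acid hydrolases break the contents down. The ULK and PI3K complexes start this process, WIPI and ATG2 proteins extend the membrane, conjugation enzymes attach the ATG8 proteins to it, and receptors such as p62 tie cargo to ATG8. TFEB and its relatives activate many autophagy and lysosome genes through the CLEAR element, an E-box variant, and lysosomal acid lipase gives fat cells a route of lipid breakdown apart from the neutral lipases.

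The values are CPM, that is counts scaled to the size of the library. Library totals ran from 689910 to 1956565 counts with a median of 1145729, and the 39 genes had from 1 to 930 counts in a library. In 7 of them (Atg5, Atg10, Gabarapl2, Map1lc3b, Mitf, Neu1 and Tfe3) at least 1 library had under 10 counts. The counted length of a gene, a column of the table, lay within 10% of the annotated intron length for 66.3% of 16435 matched genes and within 10% of the exon length for 2.48%. For 25 of 36 matched members it lay that close to the intron length and for 0 of 36 that close to the exon length. By these lengths the counts would be mainly intron reads, which follow unspliced RNA more than mature mRNA, whereas the study's methods name the gene option of the counting tool. Which of them holds was not settled here. Abhd5 itself had 47.2, 55.8 and 54.8 CPM in DMSO without Dox and 583, 656 and 484 CPM with Dox, 11-fold higher (log2 3.46 ± 0.175 SE, adjusted p = 2.44e-14). Whether the rescue construct holds introns is not given in the sources used here, and a rise of this size from a construct without them would not be seen in intron reads of that construct. Without Dox, Abhd5 had 173, 145 and 130 CPM with ISO and 77.8, 70.9 and 78.5 with SR-3420. With Dox it had 813, 859 and 808 CPM with ISO and 575, 849 and 660 with SR-3420. The level of Abhd5 without Dox thus differed between the groups. All 10 brown adipocyte markers found in the table passed the filter, and their summed level was 1760 to 1990 CPM in DMSO without Dox, 2020 to 2470 with ISO and 2410 to 2720 with SR-3420. With Dox it was 2190 to 2290 CPM in DMSO, 3900 to 4700 with ISO and 3120 to 3810 with SR-3420. This sum includes Ucp1 and Ppargc1a, which were called higher with ISO in both states. Of 6 preadipocyte markers 3 passed the filter and the sum was 104 to 173 CPM. Without Dox it was 143 to 167 CPM in DMSO, 104 to 109 with ISO and 136 to 146 with SR-3420. With Dox it was 153 to 173 CPM in DMSO, 105 to 151 with ISO and 126 to 168 with SR-3420. Of 8 macrophage markers 0 passed, with 2 to 15 counts per library in all. How far these markers bear on the results below was not tested. In such bulk samples fewer cells of a type and less RNA per cell cannot be told apart.

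Without stimulation or Dox, the members spanned a wide range of levels per length. Map1lc3a, one of the LC3 proteins, stood highest at 52.3 CPM per kb of counted length, although it was counted over only 354 bases. It was followed by the protease gene Ctsl at 24.4, the mitophagy receptor gene Bnip3 at 21.0, Sqstm1 (p62) at 18.7 and Ctsd at 17.3 CPM per kb. The 23 highest members stood above the median of all genes tested, 2.12 CPM per kb. At the low end were Tfeb at 0.321, Atg5 at 0.154, Uvrag at 0.113, Atg10 at 0.0605 and Mitf at 0.0548 CPM per kb. Of these, Atg5, Uvrag, Atg10 and Mitf were counted over 93489, 235166, 277103 and 197954 bases. The ranking rests on counted lengths whose meaning was not settled. Of the TFEB family, Tfe3 at 1.87 CPM per kb was the highest, and its 3 libraries had 9, 2 and 11 counts.

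**Figure D1:**
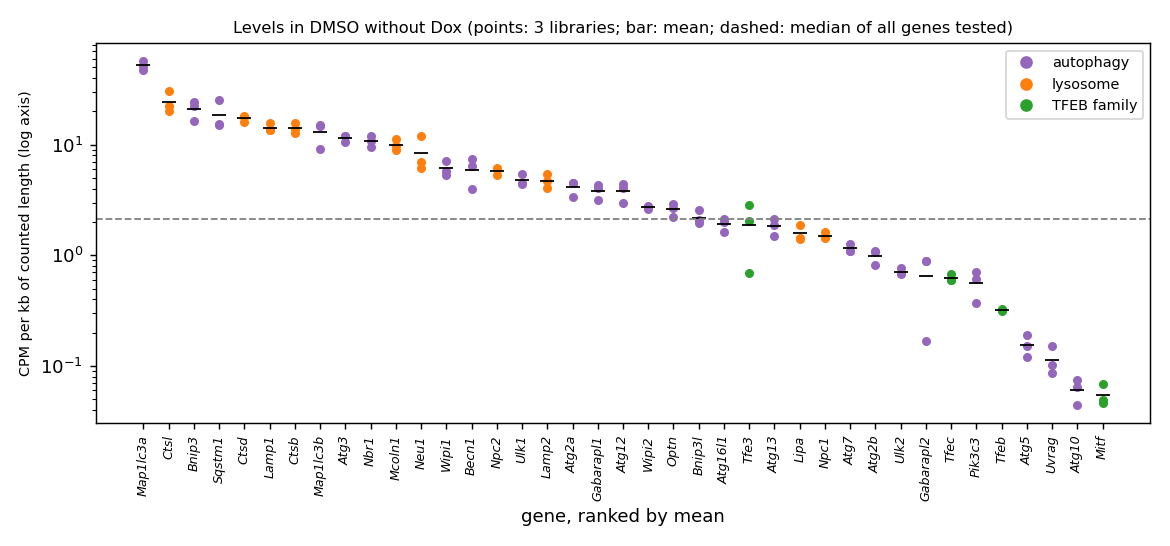
Level of each gene in DMSO without Dox in CPM per kb of counted length on a log axis, ranked by mean, with 1 point per library, a bar for the mean of 3 libraries and a dashed line for the median of all genes tested (2.12). Autophagy and lysosome genes lie on both sides of the line, and the 4 TFEB family genes lie below it by their means.

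ISO without Dox, in knockdown cells, changed 11 of the 39 genes at an adjusted p of at most 0.05, with 7 higher and 4 lower. Here and below, called without a further word means by edgeR in the fit to all 18 libraries with TMM scaling and no replicate block. Over all genes tested 14.5% were called higher and 13.5% lower. Of the 25 autophagy genes 4 rose (Wipi2, Atg5, Map1lc3a and Atg12) and 3 fell (Ulk2, Atg7 and Bnip3), with a median log2 fold change of 0.05. Of the 10 lysosome genes Ctsd and Ctsb rose and Npc1 fell, with a median of -0.07. Tfeb rose as the only family member called. The median of all genes was -0.01. Scaled by library totals alone, which moved the median of all genes by -0.18, the split was 7 higher and 9 lower.

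ISO with Dox, in rescued cells, changed 12 of 39, of which 10 were higher and 2 lower, where 16.4% of all genes tested were called higher and 16.1% lower. Of the autophagy genes 8 rose (Wipi2, Gabarapl1, Atg12, Atg2b, Bnip3, Atg2a, Optn and Atg5) and 2 fell (Ulk2 and Wipi1), and their median log2 fold change was 0.31 beside -0.02 for all genes. Ctsb and Ctsd were the lysosome genes called, and the lysosome median was 0.04. Blocking on replicate number gave 15 called genes, the same 12 and Tfeb (log2 0.66, adjusted p = 0.0318), Nbr1 (0.29, adjusted p = 0.0248) and Lipa (0.40, adjusted p = 0.0369). These 15 are 38.5% of the members, beside 39.5% of all genes tested that were called with the block.

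SR-3420 without Dox changed 0 of 39 by edgeR, and 0 by DESeq2. At an unadjusted p under 0.05 there were 2, Atg12 and Lamp2. Of all genes tested 0.698% were called higher and 0.0688% lower. The members' log2 fold changes ran from -0.38 to 0.89, and their median was 0.05. With the replicate block Wipi1 was called lower (log2 -0.40 ± 0.114 SE, adjusted p = 0.0482), where 2.34% of all genes tested were called with the block.

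SR-3420 with Dox raised 5 of 39 and lowered 0, where 6.53% of all genes tested were called higher and 3.37% lower. All 5 are autophagy genes (Gabarapl1, Sqstm1, Optn, Bnip3 and Atg12), and 3 of them belong to the 5 cargo receptors. The autophagy median was 0.24 and the lysosome median 0.17, beside -0.02 for all genes. Of the 10 lysosome genes 0 were called by edgeR and 0 by DESeq2, with 3 at an unadjusted p under 0.05. With the replicate block 12 genes (30.8%) were called, where 15.4% of all genes tested were called with the block. Atg2a, Atg3, Ctsb, Lamp1 and Lipa joined the genes called higher, and Ulk2 and Wipi1 were called lower. Scaled by library totals alone, which moved the median of all genes by -0.19, the split was 5 higher and 2 lower. In SR-3420 with Dox replicate 1 the 10 highest genes took 35.6% of counts, against 16.3 to 26.5% in the other libraries. Without that library Atg12 was no longer called here, whereas Gabarapl1, Sqstm1, Optn and Bnip3 were. The difference of Gabarapl1 between the states, given below, was also no longer called without it.

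Dox in unstimulated cells changed 0 of 39 by edgeR and 0 by DESeq2, and 4 had an unadjusted p under 0.05 (Atg7, Gabarapl1, Lipa and Npc2). Of all genes tested 1.09% were called higher and 0.0884% lower. The log2 fold changes of the members ran from -0.81 to 0.72 with a median of 0.07. Npc2 came nearest, at 72.1, 73.5 and 62.9 CPM without Dox and 93.9, 126 and 109 CPM with Dox (log2 0.64 ± 0.176 SE, adjusted p = 0.0757).

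**Figure D2:**
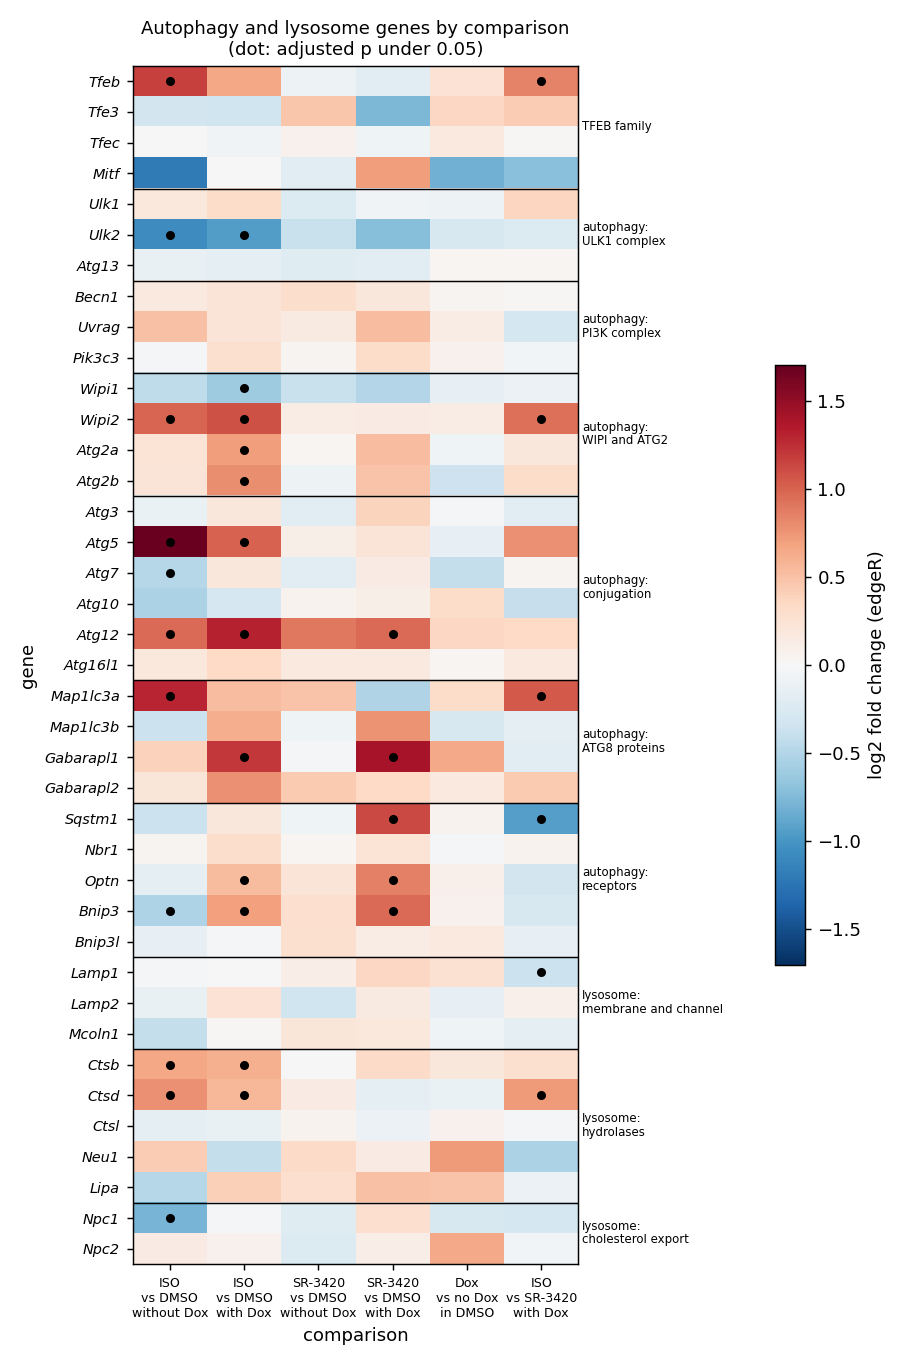
Log2 fold change (colour) of the 39 genes, grouped by role, in 6 comparisons, where a dot marks an adjusted p of at most 0.05 in edgeR. The columns for ISO hold 11 and 12 dots, the column for SR-3420 with Dox 5, and the columns for SR-3420 without Dox and for Dox in DMSO hold 0.

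**Figure D3:**
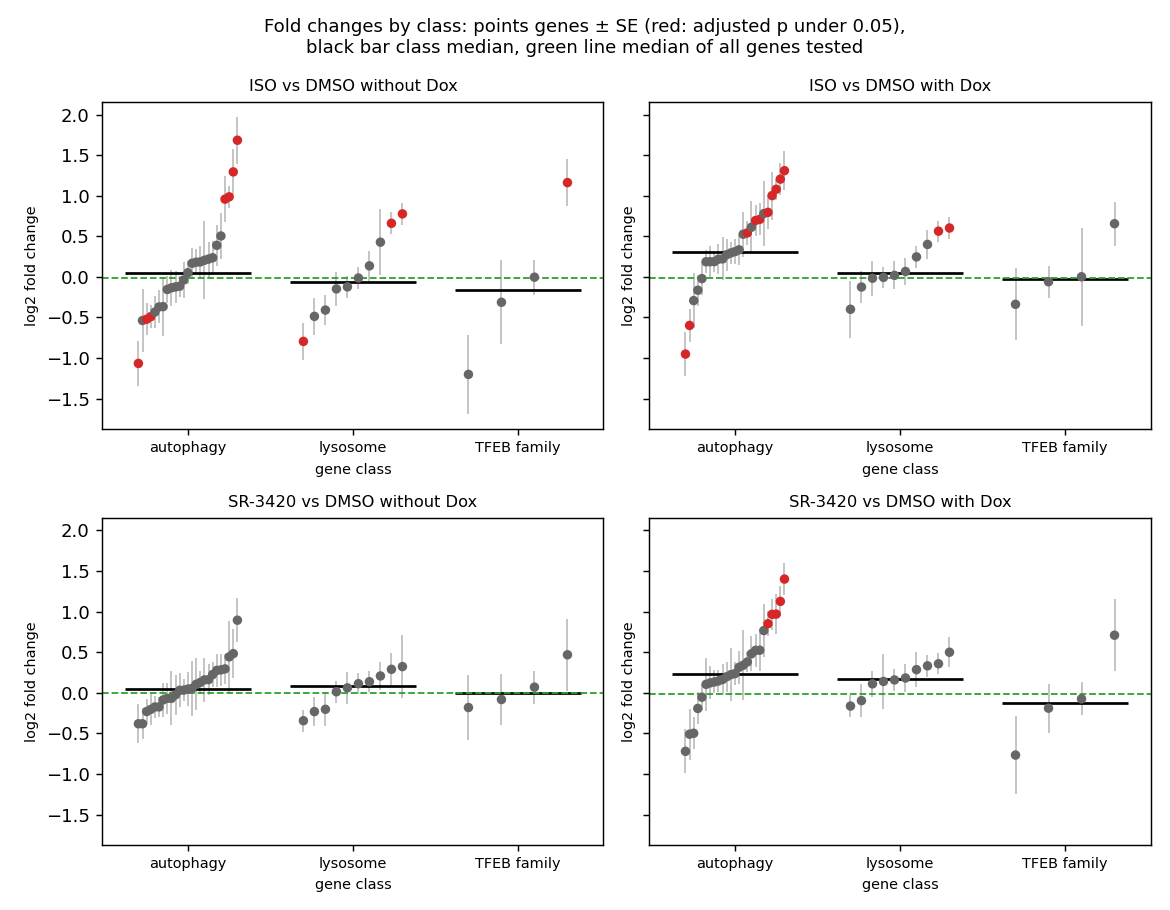
Log2 fold change ± SE of each gene by class in the comparisons of ISO and SR-3420 with DMSO, with called genes in red, the class median as a black bar and the median of all genes tested as a green dashed line. The autophagy median was 0.31 for ISO with Dox and 0.24 for SR-3420 with Dox, and 0.05 for both agents without Dox.

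The TFEB family encodes the transcription factors of the pathway. Tfeb (chr17:47873986-47929365, plus strand, build mm9 here and below) had 16.9, 16.3 and 17.3 CPM in DMSO without Dox and 41.1, 24.8 and 46.5 CPM with ISO. Every ISO library lay above every DMSO library, a 2.24-fold difference (log2 1.16 ± 0.288 SE, adjusted p = 0.00315). With Dox it had 18.8, 21.9 and 20.2 CPM in DMSO, 38.4, 28.4 and 27.9 with ISO and 13.2, 19.9 and 19.97 with SR-3420. The ISO libraries again lay above the DMSO libraries, by 1.58-fold (log2 0.66 ± 0.27 SE, adjusted p = 0.0629), a difference called only with the replicate block or a fit to the 2 groups. Mitf, Tfe3 and Tfec were called in no comparison. Mitf had 11, 10 and 9 counts in DMSO and 2, 5 and 8 with ISO without Dox (log2 -1.20 ± 0.487 SE, adjusted p = 0.0655).

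Of the ULK complex, which starts autophagosome formation, Ulk2 (chr11:61589100-61668594, minus strand) fell with ISO in both states. It had 42.7, 43.5 and 48.7 CPM in DMSO and 14.1, 19.8 and 28.5 with ISO without Dox. In rescued cells it had 29.4, 38.5 and 48.3 CPM in DMSO, 15.8, 28.4 and 12.5 with ISO and 22.0, 28.8 and 16.98 with SR-3420. The ISO libraries lay below the DMSO libraries in each state, with log2 fold changes of -1.07 ± 0.272 SE (adjusted p = 0.00408) and -0.95 ± 0.273 SE (adjusted p = 0.00804). The second was lost without DMSO replicate 3 or ISO replicate 3. The SR-3420 libraries with Dox also lay below those of DMSO (log2 -0.72 ± 0.271 SE), at an adjusted p of 0.0928 without and 0.0387 with the replicate block. Ulk1, the kinase most often tied to starvation, had group means from 83.6 to 114 CPM and Atg13, its partner, from 43.2 to 51.8 CPM, and neither was called. The PI3K complex genes Becn1, Uvrag and Pik3c3, whose products make the lipid mark that draws WIPI proteins, were not called either. With Dox their log2 fold changes ran from 0.22 to 0.27 with ISO and from 0.20 to 0.52 with SR-3420, where Uvrag passed without DMSO replicate 3 (log2 0.86, adjusted p = 0.0465).

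The WIPI proteins read that lipid mark, and the ATG2 proteins they recruit move lipid into the growing membrane. Wipi2 (chr5:143105538-143145324, plus strand) gave the smallest p of all members for ISO in both states. It had 90.8, 89.8 and 86.2 CPM in DMSO without Dox, 188, 166 and 176 with ISO and 94.6, 98.7 and 98.1 with SR-3420. The libraries with Dox had 98.7, 90.6 and 102 CPM in DMSO, 221, 175 and 222 with ISO and 102, 111 and 110 with SR-3420. The ISO libraries stood apart from all others, 1.98-fold above DMSO without Dox (log2 0.99 ± 0.133 SE, adjusted p = 1.94e-06) and 2.11-fold with Dox (log2 1.08 ± 0.127 SE, adjusted p = 1.28e-07). Its ISO response did not pass a test of a difference between the states (log2 0.09 ± 0.185 SE, adjusted p = 0.873). Its relative Wipi1 (chr11:109434835-109472703, minus strand) fell with ISO with Dox, from 175, 202 and 184 CPM to 92.5, 158 and 117 CPM (log2 -0.60 ± 0.198 SE, adjusted p = 0.021). This call was lost without DMSO replicate 2, ISO replicate 1 or ISO replicate 3. Without Dox, Wipi1 had 181.5, 240.8 and 196.8 CPM in DMSO and 138.3, 183.4 and 135.1 with ISO, which overlapped (log2 -0.43 ± 0.198 SE, adjusted p = 0.104). That difference passed without a filter (adjusted p = 0.0483), in a fit to the 2 groups (0.0385) and with library totals alone (0.0291). It also passed with the replicate block (0.00291) and without ISO replicate 2 (0.0494). The ISO responses of Wipi1 did not pass a test of a difference between the states (log2 -0.17 ± 0.28 SE, adjusted p = 0.849). With SR-3420 and Dox its libraries had 91.4, 182 and 124 CPM and overlapped those of DMSO (log2 -0.50 ± 0.199 SE), with an adjusted p of 0.118 without and 0.000951 with the replicate block. The SR-3420 difference also passed without a filter (adjusted p = 0.023), with library totals alone (0.0462) and without SR-3420 replicate 2 (log2 -0.80, adjusted p = 0.0121).

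Both ATG2 genes rose with ISO in rescued cells. Atg2a (chr19:6241668-6262304, plus strand) went from 62.1, 38.5 and 57.3 CPM in DMSO to 85.0, 82.7 and 97.2 with ISO (log2 0.71 ± 0.198 SE, adjusted p = 0.0066). All 3 ISO libraries lay above the DMSO libraries, as did those of SR-3420 at 84.4, 63.6 and 83.9 CPM (log2 0.52 ± 0.203 SE, adjusted p = 0.105, and 0.0151 with the replicate block). Atg2b (chr12:106851749-106923451, minus strand) had 36.6, 40.6 and 46.1 CPM in DMSO and 78.4, 42.5 and 91.4 with ISO, a difference of log2 0.80 ± 0.209 SE (adjusted p = 0.00415). Replicate 2 with ISO lay within the range of the DMSO libraries. Without Dox the log2 fold changes with ISO were 0.24 for Atg2a and 0.22 for Atg2b, and neither was called.

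The conjugation enzymes couple ATG12 to ATG5 and ATG8 proteins to lipid. Atg12 was called in 3 comparisons. It had 15.1, 16.3 and 11.2 CPM in DMSO without Dox, 28.1, 32.7 and 22.5 with ISO and 26.7, 26.1 and 25.9 with SR-3420. Its levels with Dox were 16.4, 16.7 and 22.5 CPM in DMSO, 45.02, 41.7 and 48.1 with ISO and 46.6, 22.9 and 36.0 with SR-3420. All libraries of either agent lay above the DMSO libraries of the same state. The fold changes were 1.94 (adjusted p = 0.0125) and 2.48 (adjusted p = 9.41e-05) for ISO without and with Dox, and 1.86 (adjusted p = 0.17) and 1.96 (adjusted p = 0.0103) for SR-3420. The call for ISO without Dox was lost without DMSO replicate 3 or ISO replicate 2. That for SR-3420 with Dox was lost without SR-3420 replicate 1, whose 10 highest genes took 35.6% of counts against 16.3 to 26.5% in the other libraries, or without DMSO replicate 1.

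Atg5 (chr10:43988164-44084097, plus strand) showed the largest ISO response of the members without Dox, on low counts. It had 16, 13 and 11 counts (14.2, 17.7 and 11.2 CPM) in DMSO and 49, 49 and 49 counts (53.0, 48.6 and 36.8 CPM) with ISO, 3.21-fold higher (log2 1.68 ± 0.287 SE, adjusted p = 5.62e-05). In rescued cells there were 12.0, 17.7 and 8.99 CPM in DMSO and 32.5, 18.1 and 27.0 with ISO (log2 1.00 ± 0.295 SE, adjusted p = 0.0097), where the groups were parted by 1 library at 18.1 beside 17.7 CPM. The call with Dox was lost without DMSO replicate 1 or ISO replicate 1. Atg7 (chr6:114593119-114810632, plus strand), the activating enzyme for both couplings, fell with ISO without Dox from 230, 229 and 263 CPM to 133, 180 and 197 CPM (log2 -0.49 ± 0.143 SE, adjusted p = 0.0109), a call lost without DMSO replicate 3 or ISO replicate 1. Atg7 with Dox had 169, 205 and 173 CPM in DMSO and 218, 206 and 194 with ISO (log2 0.19 ± 0.141 SE, adjusted p = 0.33). The difference between these ISO responses was log2 0.68 ± 0.201 SE, with an adjusted p of 0.072. Atg3, Atg10 and Atg16l1 were not called. Atg3, the enzyme that transfers ATG8 to lipid, had 264, 280 and 269 CPM in DMSO with Dox and 361, 352 and 343 with SR-3420, groups that did not overlap (log2 0.38 ± 0.127 SE, adjusted p = 0.0539). Atg3 passed there in DESeq2 (adjusted p = 0.0395), with RLE factors (0.0497), with a minimum of 10 counts per library (0.0489) and with the replicate block (0.00699).

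Among the ATG8 proteins, which coat the autophagosome and bind receptors, Gabarapl1 (chr6:129483210-129492349, plus strand) rose with both agents in rescued cells. It had 22.2, 28.6 and 30.4 CPM in DMSO without Dox, 41.1, 35.7 and 30.0 with ISO and 22.1, 34.3 and 22.0 with SR-3420, and these groups overlapped. The libraries with Dox had 47.2, 35.4 and 40.5 CPM in DMSO, 117, 85.9 and 87.6 with ISO and 135, 107 and 89.9 with SR-3420. The stimulated libraries with Dox lay above all other libraries. The rise was 2.31-fold with ISO (log2 1.21 ± 0.193 SE, adjusted p = 1.65e-05) and 2.64-fold with SR-3420 (log2 1.40 ± 0.192 SE, adjusted p = 7.85e-06). A gene on the other strand, 1700101I11Rik, overlaps Gabarapl1, and its reads cannot be told apart without strand.

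Map1lc3a (chr2:155102100-155103809, plus strand), an LC3 protein, rose with ISO without Dox, from 16.9, 20.4 and 18.3 CPM to 53.0, 31.7 and 50.3 CPM (log2 1.29 ± 0.288 SE, adjusted p = 0.00116). In rescued cells it had 13.5, 26.02 and 34.8 CPM in DMSO, 28.4, 37.8 and 31.8 with ISO and 15.8, 19.9 and 12.0 with SR-3420, and neither agent passed the test against DMSO, although ISO passed without DMSO replicate 3 (adjusted p = 0.0272). It lies within the span of Pigu on the other strand. Map1lc3b, the LC3 protein most used as an autophagosome marker, had at most 27 counts in a library and was not called. Its libraries with Dox had 13.0, 6.25 and 7.87 CPM in DMSO, 13.3, 17.3 and 14.4 with ISO and 20.2, 13.9 and 15.98 with SR-3420 (adjusted p = 0.153 and 0.146). Without DMSO replicate 1 the ISO difference of Map1lc3b moved from log2 0.61 to 1.09 and passed (adjusted p = 0.0488). Gabarapl2, with 1 to 15 counts, was not called.

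Cargo receptors link ubiquitinated proteins or mitochondria to ATG8. Sqstm1 (chr11:50013654-50024322, minus strand) encodes p62, and it had 113, 189 and 115 CPM in DMSO without Dox, 88.6, 134 and 95.3 with ISO and 128, 149 and 112 with SR-3420. Its levels with Dox were 128, 170 and 132 CPM in DMSO, 134, 193 and 157 with ISO and 278, 378 and 275 with SR-3420. Only the SR-3420 libraries with Dox stood above the rest, 2.18-fold over DMSO (log2 1.13 ± 0.185 SE, adjusted p = 0.000104). ISO with Dox differed from DMSO by log2 0.19 ± 0.19 SE (adjusted p = 0.481).

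Optn (chr2:4941688-4984984, minus strand), the optineurin gene, had 83.8, 119 and 107 CPM in DMSO with Dox, 150, 150 and 143 with ISO and 177, 178 and 194 with SR-3420. The 3 groups did not overlap, and the rises over DMSO were log2 0.54 ± 0.152 SE (adjusted p = 0.00664) and 0.85 ± 0.151 SE (adjusted p = 0.000258). With library totals alone or without DMSO replicate 1 the first was no longer called. Optn overlaps 4930551O13Rik on the other strand. Without Dox, it had 81.9, 108 and 99.4 CPM in DMSO, 71.3, 98.2 and 87.1 with ISO and 99.3, 131 and 104 with SR-3420, with overlapping groups.

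Bnip3 (chr7:146082519-146101189, minus strand), a mitophagy receptor of the outer mitochondrial membrane, changed in opposite directions with ISO in the 2 states. Without Dox it had 408, 276 and 380 CPM in DMSO, 218, 222 and 302 with ISO and 517, 374 and 410 with SR-3420. With Dox it had 415, 278 and 433 CPM in DMSO, 767, 431 and 630 with ISO and 817, 709 and 677 with SR-3420. With ISO it was lower without Dox (log2 -0.52 ± 0.199 SE, adjusted p = 0.0493) and higher with Dox (0.69 ± 0.191 SE, adjusted p = 0.00597), although 1 library of each ISO group fell in the range of DMSO. SR-3420 with Dox gave log2 0.97 ± 0.192 SE (adjusted p = 0.000943), with no overlap. The fall without Dox was lost with RLE factors and without DMSO replicate 1 or 3 or ISO replicate 1 or 2, and the ISO rise with Dox without DMSO replicate 2 or ISO replicate 1. Nbr1 and Bnip3l, a further mitophagy receptor, were not called, but Nbr1 passed for ISO with Dox with the replicate block (log2 0.29, adjusted p = 0.0248) and without ISO replicate 2 (0.48, adjusted p = 0.00945).

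**Figure D4:**
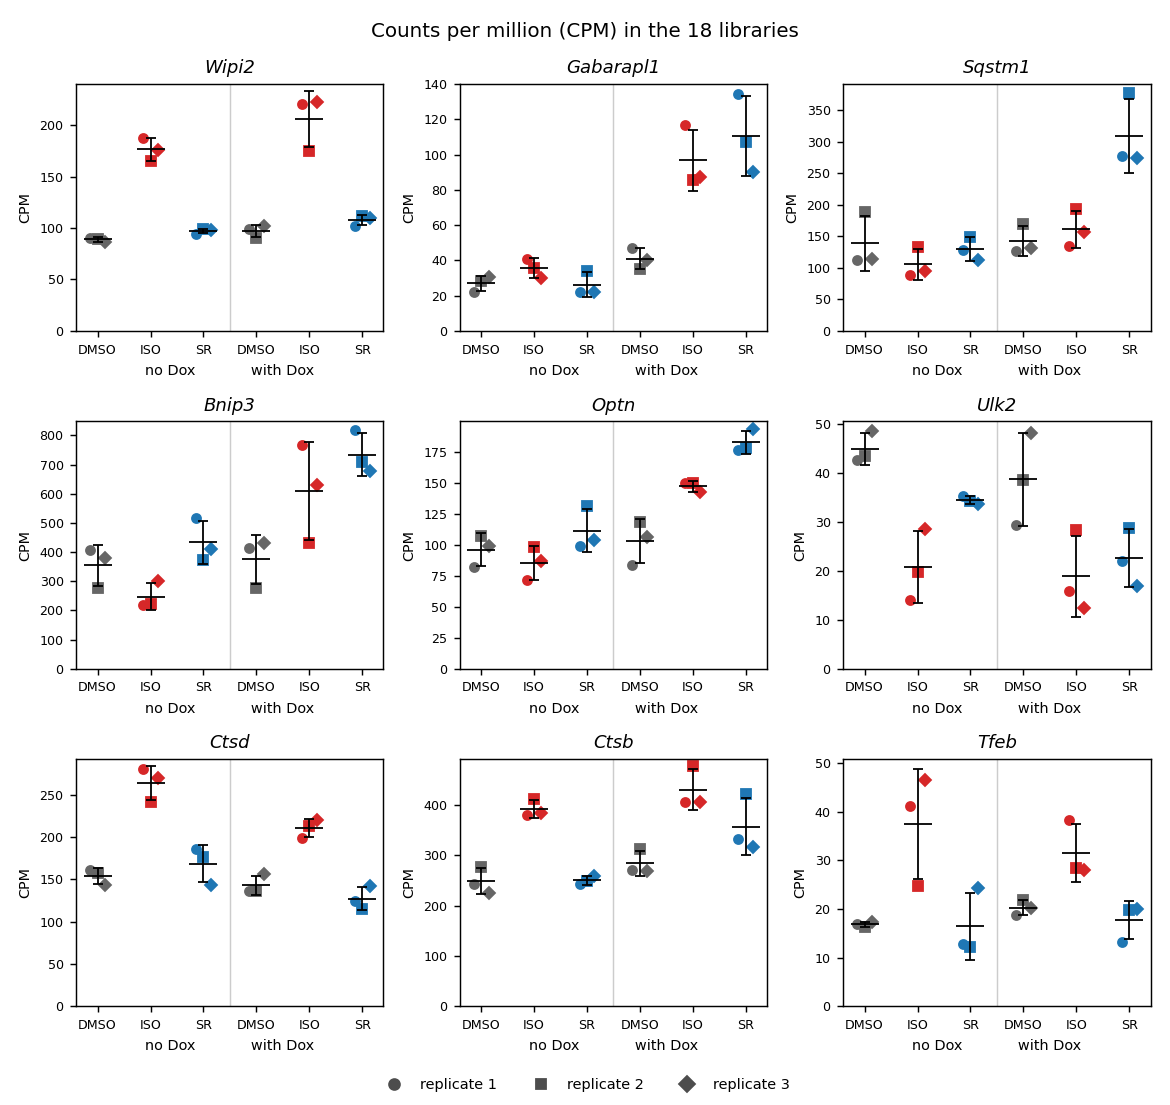
CPM of 9 genes in the 18 libraries (circles, squares and diamonds for replicates 1, 2 and 3) with the mean ± SD of each group of 3. By group means, Wipi2, Ctsd and Tfeb stand highest with ISO, Sqstm1 with SR-3420 and Dox, and Gabarapl1 with either agent and Dox.

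Within the lysosome, the cathepsins B and D are proteases of its lumen. Ctsd (chr7:149561821-149573775, minus strand) had 161, 158 and 143 CPM in DMSO without Dox, 280, 242 and 270 with ISO and 186, 177 and 144 with SR-3420. The libraries with Dox had 137, 136 and 156 CPM in DMSO, 199, 213 and 220 with ISO and 125, 115 and 142 with SR-3420. The ISO libraries lay above all DMSO and SR-3420 libraries of either state, and the rises were log2 0.78 ± 0.131 SE (adjusted p = 5.13e-05) and 0.56 ± 0.131 SE (adjusted p = 0.00135).

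Ctsb (chr14:63741299-63764760, plus strand) had 244, 276 and 225 CPM in DMSO without Dox and 379, 411 and 384 with ISO. In rescued cells it had 270, 313 and 269 CPM in DMSO, 407, 478 and 406 with ISO and 333, 423 and 316 with SR-3420. ISO and DMSO did not overlap in either state (log2 0.66 ± 0.135 SE, adjusted p = 0.000463, and 0.60 ± 0.131 SE, adjusted p = 0.000745). The SR-3420 libraries with Dox also lay above DMSO (log2 0.33 ± 0.133 SE), with an adjusted p of 0.118 without and 0.0227 with the replicate block. Fdft1 overlaps Ctsb on the other strand. Of the other hydrolases, Ctsl, the sialidase gene Neu1 and Lipa, which encodes lysosomal acid lipase, were not called. Lipa had 55.9, 70.8 and 47.2 CPM in DMSO with Dox, 80.0, 83.5 and 64.5 with ISO and 79.1, 97.4 and 68.9 with SR-3420, with overlap of each with DMSO and log2 differences of 0.40 ± 0.181 and 0.50 ± 0.182 SE (adjusted p = 0.0907 and 0.0814). In each of the 3 replicate numbers Lipa was higher with either agent than in DMSO, and with the replicate block the adjusted p was 0.0369 for ISO and 0.0218 for SR-3420. Without DMSO replicate 2 both also passed (adjusted p = 0.0392 and 0.0413), and with library totals alone Lipa was lower with ISO without Dox (log2 -0.67 ± 0.251 SE, adjusted p = 0.0438).

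Lamp1 and Lamp2, the main proteins of the lysosomal membrane, and Mcoln1, its calcium channel, passed in no comparison with DMSO. Lamp1 (chr8:13159135-13175338, plus strand) had 215, 256 and 216 CPM in DMSO with Dox, 223, 236 and 224 with ISO and 287, 306 and 286 with SR-3420. The SR-3420 libraries lay above the others (log2 0.36 ± 0.129 SE against DMSO, adjusted p = 0.0783, and 0.0102 with the replicate block). Grtp1 overlaps it on the other strand. Npc1 and Npc2 carry cholesterol out of the lysosome. Npc1 fell with ISO without Dox, from 51.6, 58.5 and 52.8 CPM to 28.1, 39.7 and 26.3 CPM with no overlap (log2 -0.79 ± 0.232 SE, adjusted p = 0.0109), a call lost without ISO replicate 3. Npc1 with Dox had 40.0, 57.3 and 38.2 CPM in DMSO and 39.2, 52.8 and 39.5 with ISO (log2 -0.02 ± 0.216 SE). The difference between these 2 ISO responses of Npc1 did not pass the test (log2 0.78 ± 0.317 SE, adjusted p = 0.228). It overlaps 2 annotated genes on the other strand.

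ISO and SR-3420 were compared directly in rescued cells. Of 39 genes 4 were higher with ISO (Wipi2, Ctsd, Map1lc3a and Tfeb) and 2 higher with SR-3420 (Sqstm1 and Lamp1), where 10.4% of all genes tested were called higher and 9.43% lower with ISO. Wipi2 was 1.91-fold higher with ISO than with SR-3420 (log2 0.93 ± 0.127 SE, adjusted p = 3.33e-06) and Ctsd 1.65-fold (log2 0.73 ± 0.133 SE, adjusted p = 0.000209). Map1lc3a was 2.05-fold higher (log2 1.04 ± 0.299 SE, adjusted p = 0.0135) and Tfeb 1.80-fold (log2 0.85 ± 0.285 SE, adjusted p = 0.035). Sqstm1 was lower with ISO by log2 -0.94 ± 0.183 SE (adjusted p = 0.000418), and Lamp1 by -0.36 ± 0.129 SE (adjusted p = 0.0458). Of the 39 members 13 (33.3%) did not overlap between the agents, beside 34.6% of all genes tested. With the replicate block 10 members (25.6%) were called, where 27.2% of all genes tested were called with the block. The call for Tfeb was lost with DESeq2 and without ISO replicate 1 or SR-3420 replicate 1 or 3, and that for Map1lc3a without ISO replicate 2 or SR-3420 replicate 3. Lamp1 was called in only 3 of 14 alternatives and in none that left out a library, and with RLE factors or library totals alone the split was 4 higher and 1 lower. Gabarapl1 (log2 -0.20 ± 0.175 SE, adjusted p = 0.464), Bnip3 (-0.27 ± 0.188 SE, adjusted p = 0.332) and Atg12 (0.34 ± 0.219 SE, adjusted p = 0.291) did not pass a test between the agents.

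Whether a response depended on Dox was tested with an interaction term, the response with Dox minus that without. For ISO, 1 of 39 genes passed, Bnip3, with a response higher by log2 1.22 ± 0.276 SE with Dox (adjusted p = 0.0139), where 1.61% of all genes tested had a higher and 0.57% a lower response with Dox. For SR-3420, 2 passed, Gabarapl1 (log2 1.43 ± 0.317 SE, adjusted p = 0.0257) and Sqstm1 (log2 1.19 ± 0.268 SE, adjusted p = 0.0259), where 0.54% of all genes tested had a higher and 0.216% a lower response. With library totals alone, which moved the median of all genes by -0.14, neither was called. Leaving out 1 library ended the call of Bnip3 in 3 of 12 fits, of Gabarapl1 in 7 of 12 and of Sqstm1 in 6 of 12. For Optn the difference was log2 0.70 ± 0.224 SE with ISO (adjusted p = 0.1) and 0.63 ± 0.217 SE with SR-3420 (adjusted p = 0.193). For the ISO response of Gabarapl1 it was log2 0.82 ± 0.319 SE (adjusted p = 0.203). With the replicate block Optn passed for ISO (adjusted p = 0.0136) and SR-3420 (0.0304). The block called 5 of 39 members (12.8%) for each interaction, where 5.9% of all genes tested were called for ISO and 3.33% for SR-3420.

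In all, 18 of the 39 genes (46.2%) were called in at least 1 of these 8 comparisons and 21 in none. Of all genes tested 48.5% were called in at least 1, so the share among the members was near the background. The 21 were Tfe3, Tfec and Mitf of the TFEB family, Ulk1, Atg13, Becn1, Uvrag, Pik3c3, Atg3, Atg10, Atg16l1, Map1lc3b, Gabarapl2, Nbr1 and Bnip3l of the autophagy genes, and Lamp2, Mcoln1, Ctsl, Neu1, Lipa and Npc2 of the lysosome genes. Between groups their log2 fold changes ran from -1.20 to 0.78, and their smallest adjusted p was 0.0539. Of the 21, 9 passed in at least 1 alternative, namely Atg3, Lipa, Map1lc3b, Mcoln1, Mitf, Nbr1, Npc2, Ulk1 and Uvrag. Their standard errors and those of the called genes lay between 0.126 and 0.719 log2 units.

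The promoters of 5 genes called with ISO and Dox, those those with the smallest p apart from Atg12, are shown to set their sequence beside their response. The promoter of Atg12, whose p was smaller than those of Ctsb, Ctsd and Atg2b, is not printed but is among the windows counted below. Each window covers 250 bases before and 50 from the start given in the table, on build mm9, written on the strand of the gene. Capitals mark TCACGTGA (the CLEAR core), CACGTGA or CACGTG (the E-box, which lies inside both), and TGACGTCA (the cAMP response element), searched on both strands. The windows are chr14:63741049-63741348 for Ctsb, chr7:149573726-149574025 for Ctsd, chr5:143105288-143105587 for Wipi2, chr6:129482960-129483259 for Gabarapl1 and chr12:106923402-106923701 for Atg2b.
Ctsb: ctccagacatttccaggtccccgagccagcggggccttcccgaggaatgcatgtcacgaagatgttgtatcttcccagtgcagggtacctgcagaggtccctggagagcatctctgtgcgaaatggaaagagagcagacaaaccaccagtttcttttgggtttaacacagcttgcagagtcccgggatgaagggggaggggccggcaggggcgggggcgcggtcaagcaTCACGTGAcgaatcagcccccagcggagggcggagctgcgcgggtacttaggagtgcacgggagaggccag
Ctsd: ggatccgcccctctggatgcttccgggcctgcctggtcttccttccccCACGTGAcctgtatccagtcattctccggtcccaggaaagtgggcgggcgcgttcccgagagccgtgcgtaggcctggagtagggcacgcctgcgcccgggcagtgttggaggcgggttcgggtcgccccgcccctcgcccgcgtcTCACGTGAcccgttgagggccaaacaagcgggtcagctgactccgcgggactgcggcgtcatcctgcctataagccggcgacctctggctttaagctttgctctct
Wipi2: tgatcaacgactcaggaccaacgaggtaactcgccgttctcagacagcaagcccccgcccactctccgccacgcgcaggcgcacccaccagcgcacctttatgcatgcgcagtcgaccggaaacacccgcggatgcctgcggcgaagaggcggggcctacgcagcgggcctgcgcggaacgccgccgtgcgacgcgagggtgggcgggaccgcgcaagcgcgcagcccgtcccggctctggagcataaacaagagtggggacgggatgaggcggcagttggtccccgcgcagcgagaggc
Gabarapl1: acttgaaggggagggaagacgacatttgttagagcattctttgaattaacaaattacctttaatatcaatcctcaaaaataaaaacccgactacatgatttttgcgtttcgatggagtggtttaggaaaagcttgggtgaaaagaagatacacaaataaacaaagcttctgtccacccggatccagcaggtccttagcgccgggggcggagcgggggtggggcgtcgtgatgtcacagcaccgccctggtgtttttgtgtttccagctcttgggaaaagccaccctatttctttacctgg
Atg2b: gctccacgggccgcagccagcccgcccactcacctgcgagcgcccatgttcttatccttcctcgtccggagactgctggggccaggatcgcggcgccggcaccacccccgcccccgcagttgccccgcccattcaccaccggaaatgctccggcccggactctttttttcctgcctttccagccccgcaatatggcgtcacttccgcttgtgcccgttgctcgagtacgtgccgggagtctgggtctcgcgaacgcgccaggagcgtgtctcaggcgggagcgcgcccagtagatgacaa
Ctsb held TCACGTGA 21 bases before its start, and Ctsd held it 56 bases before and CACGTGA 202 bases before its start. The windows of Wipi2, Gabarapl1 and Atg2b held no match to these. Among all 39 genes TCACGTGA was found in 4 windows (Atg3, Mcoln1, Ctsb and Ctsd), 10.3%, against 1.35% of all 17672 promoters. CACGTGA was found in those and in Lamp1, 12.8% against 4.88%, and CACGTG also in Atg5 and Bnip3, 17.9% against 8.71%. TGACGTCA was found in Becn1, Atg5, Map1lc3a and Bnip3l, 10.3% against 2.66%. Its first 5 letters alone, TGACG, which are not in capitals above, were found in 20 of 39 windows, 51.3% against 26.4%. The 17672 promoters include those of 7494 genes under the filter on low counts, which all 39 members passed. These shares therefore compare unlike sets, and the share among genes tested was not counted. A match is a description of the letters and not a shown binding site.

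Further genes of the pathway were counted from 4 lists, to be read against all genes tested, of which 14.5% were called higher and 13.5% lower with ISO without Dox, 16.4% and 16.1% with ISO and Dox, and 6.53% and 3.37% with SR-3420 and Dox. Of 36 other autophagy genes 31 were tested. ISO raised 6 and lowered 4 of them without Dox, led by Atg101 (log2 0.80), Tecpr1 (1.22) and Plekhm1 (0.83), and raised 8 and lowered 2 with Dox, led by Atg101 (1.52) and Rb1cc1 (1.17), both of the ULK complex, and Bcl2l13 (1.16), a mitophagy receptor. SR-3420 with Dox raised 8 and lowered 0, led by Atg101 (0.94), Plekhm1 (0.99) and Wdr45 (0.97), a WIPI relative. Of 14 V-ATPase subunits tested, which acidify the lysosome, SR-3420 with Dox raised 6, led by Atp6v1c1 (0.95), Atp6v1b2 (1.13) and Atp6v1g1 (0.87). ISO raised 1 and lowered 1 of them without Dox (Atp6v1e1 0.44 and Atp6v0a1 -0.52), and raised 5 and lowered 1 with Dox (Atp6v1e1 0.75, Atp6v1c1 0.68 and Atp6v0a1 -0.56 among them).

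Beside the same shares of all genes, 14.5% higher and 13.5% lower without Dox and 16.4% and 16.1% with Dox, ISO raised 3 and lowered 6 of 35 other lysosomal genes without Dox (Pla2g15 1.44, Psap -0.42 and Hgsnat -0.52 leading) and raised 2 and lowered 3 with Dox (Pla2g15 1.09, Gusb -0.94 and Hgsnat -0.62). SR-3420 with Dox raised 7 and lowered 1, with Pla2g15, a lysosomal phospholipase, at 1.05, the protease gene Ctsz at 0.81 and the hexosaminidase gene Hexa at 0.76. Of 26 nutrient-sensing genes upstream of ULK1 and TFEB, ISO raised 3 and lowered 3 without Dox (Mtor 1.47, Sesn1 -1.09 and Flcn 0.80) and raised 6 and lowered 3 with Dox (Mtor 1.35, Flcn 1.19 and Sesn1 -1.29). SR-3420 with Dox raised 6 and lowered 2, led by Flcn (1.59), Fnip1 (1.27) and Rragc (0.75), whose products act together on the lysosome surface in the control of TFEB. Without Dox, SR-3420 lowered Sesn1 (log2 -1.002). Apart from Sesn1, 0 genes of the 4 lists were called with SR-3420 without Dox or with Dox in DMSO by edgeR, where 3, 3, 0 and 4 and 1, 1, 1 and 1 had an unadjusted p under 0.05 among the other autophagy, other lysosomal, V-ATPase and nutrient-sensing genes. Few of all genes tested were called there either, 0.698% higher and 0.0688% lower with SR-3420 without Dox, and 1.09% and 0.0884% with Dox in DMSO.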

How the data were processed

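Reads from TruSeq2 libraries were, per the study's methods, mapped by the authors to mm9 using STAR 2.4.2a. HOMER retained 1 read for each position and length, and iRNA-seq did the counting, with its gene option per those methods. The deposited values are counts in whole numbers with no normalization, 1 value for each gene in each library. Strand use is not given in the sources used here. Counted lengths and overlaps were compared with the GENCODE annotation of that build, and promoters were read from its genome. Whether the ABHD5 construct holds introns is not given in the sources used here.

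All 18 libraries were fitted in edgeR 4.0.16 (R 4.3.3) with 1 mean per group, TMM factors (0.768 to 1.13), filterByExpr and two-sided quasi-likelihood tests, Benjamini-Hochberg adjusted over 10178 genes and called at 0.05. The biological coefficient of variation was 0.133. Standard errors come from the F statistic. The script was tested on simulated data. DESeq2 1.42.0, other scalings and filters, a replicate block and leaving out each library were alternatives. The study describes independent experiments, and the p-values measure only the spread between these samples. The members and lists were chosen with earlier results of these data known. All members are described, those called in at least 1 comparison by library, and up to 3 genes of each further list with the smallest p among those called. Promoters are shown for the 5 genes with the smallest p for ISO with Dox, chromosome 18 (Atg12) left out.

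Same-numbered libraries deviated together, with every correlation above 0.1, for ISO with Dox (0.165 to 0.262) and for SR-3420 without (0.137 to 0.263) and with Dox (0.123 to 0.246), so the block is given beside those results where it changes them. This pairing rests on the data and the shared numbers in the sample titles.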

Additional observations from a re-analysis of the deposited data

Results flagged for a closer look

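The response to SR-3420 differed between cells with and without Dox, by a test of the difference itself, for Gabarapl1 (log2 1.43 ± 0.317 SE, adjusted p = 0.0257) and Sqstm1 (log2 1.19 ± 0.268 SE, adjusted p = 0.0259). Gabarapl1 kept this call in 12 of 20 alternatives and Sqstm1 in 13 of 20. In 3 of 3 libraries with SR-3420 and Dox each gene lay above every DMSO library. The response to ISO differed between the states for Bnip3 (log2 1.22 ± 0.276 SE, adjusted p = 0.0139), a call kept in 17 of 20 alternatives. The cause of these differences was not tested.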

How the results depend on the processing

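Of 37 calls of a member in a comparison, 21 held under every alternative fit, 16 were lost under at least 1, and 0 changed direction. Of the 37, 14 had a log2 fold change of at least 1, 9 of them among the 21. With library totals alone 33 of 37 were kept, and the SR-3420 interaction fell to 0 genes. With DESeq2 35 were kept, losing Tfeb and Lamp1 in ISO against SR-3420, and the ISO interaction had 2 genes, Bnip3 and Atg7. At least 10 counts in every sample left Atg5 untested and kept 35 of 35. Without a filter, Dox in DMSO had 1 gene (Npc2). Scaling moved the median of all genes by over 0.1 also for ISO with Dox (-0.14 with library totals, -0.12 with upper-quartile factors).

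When a log2 fold change of at least 1 was also required, 4 and 4 genes remained for ISO without and with Dox, 2 for SR-3420 with Dox and 1 for ISO against SR-3420. These counts are not set beside the share of all genes tested at the same cut. With the replicate block all 37 calls were kept, and the counts became 13 for ISO without Dox (adding Wipi1 and Sqstm1, both lower), 1 for SR-3420 without Dox, 12 for SR-3420 with Dox, 1 for Dox in DMSO, 10 for ISO against SR-3420 and 5 for each interaction (adding Atg7, Lipa, Optn and Sqstm1 for ISO, and Atg3, Bnip3 and Optn for SR-3420). Calls over all genes tested rose with the block as well, in the same order of comparisons to 34.4%, 2.34%, 15.4%, 2.66%, 27.2%, and 5.9% and 3.33% for the ISO and SR-3420 interactions. The other comparisons were not treated as paired, because not every same-number correlation in them was above 0.1. A pairing there may thus be left out of the main fit. Over all groups 36 of 45 same-number correlations were above 0.1 (0.0386 to 0.277), although 18 of 18 libraries correlated best with their own number.

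Leaving out 1 library at a time gave 8 to 11 genes for ISO against DMSO without Dox, 9 to 13 genes for ISO against DMSO with Dox, 0 genes throughout for SR-3420 against DMSO without Dox, 4 to 6 genes for SR-3420 against DMSO with Dox, 0 to 1 genes for Dox against no Dox in DMSO, 3 to 6 genes for ISO against SR-3420 with Dox, 0 to 2 genes for the ISO interaction and 0 to 2 genes for the SR-3420 interaction. For the ISO interaction 0 genes were called when replicate 1 of DMSO without Dox, of ISO without Dox or of ISO with Dox was dropped, and 2 when ISO without Dox lost replicate 3. For the SR-3420 interaction 0 were called when replicate 2 of DMSO without Dox, replicate 1 or 3 of SR-3420 without Dox, or replicate 3 of DMSO with Dox was dropped. The 1 gene for Dox (Npc2) came without DMSO with Dox replicate 1, and the 3 for ISO against SR-3420 without SR-3420 with Dox replicate 3. At these depths small differences in the 7 members with under 10 counts in a library are poorly resolved. Atg5, 1 of the 7, kept its ISO call without Dox in 13 of 13 alternatives.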
